A study of Mus musculus with 6 samples.

Results

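The genes described here are those of polyamine synthesis and of the methionine salvage cycle tied to it: Odc1, Oaz1, Azin1, Srm, Sms, Amd1, Sat1, Smox, Mtap and Adi1. Members were the probe sets that the array's annotation assigns to exactly 1 gene, where that gene is one of these 10. The rule found 18 probe sets for 8 genes, among 34945 probe sets with 1 gene symbol (18193 genes) in all. No probe set was annotated to Amd1, and 3 probe sets were annotated to Sms only together with its pseudogene Sms-ps. The genes had been proposed with the difference between the genotypes already known. That difference is therefore given for them as a description, without a p-value. Whether a member passed the threshold set over all probe sets is likewise a description and no test of these genes.

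Each of the 6 arrays (Affymetrix Mouse 430.2) held RNA from the jejunum of 1 male C57BL/6 mouse, and all 6 mice, aged 7 to 10 weeks and housed singly, ate a diet with 42% of its energy from milk fat and 0.2% from cholesterol. The study fed mice for 3 to 8 weeks, and its tissue protocol names 3 weeks. The groups were wild type (mice 1, 3 and 4) and double knockout (mice 1, 2 and 3), the latter without Ifrd1, labelled TIS7, and Ifrd2, labelled SKMc15, 2 related regulators of transcription. Both genes were missing in every knockout mouse and no single knockout was measured, so the part of each gene cannot be told apart, and the labels do not describe the alleles. Values are log2 expression levels, on which a difference of 1 is a doubling, and a level above 4 on at least 3 of the 6 arrays was needed for a test.

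Polyamines are small, positively charged molecules that bind nucleic acids and are needed for growth and protein synthesis; the lining of the small intestine, which renews itself constantly, makes them and also takes them up from food. Ornithine decarboxylase makes putrescine, and spermidine and spermine synthases then add aminopropyl groups taken from decarboxylated S-adenosylmethionine. Each addition releases methylthioadenosine, which the salvage cycle turns back into methionine.

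Ifrd1 was at 9.84 to 10.00 on the wild type and at 4.80 to 6.27 on the double knockout arrays, and Ifrd2 at 8.20 to 8.61 and 2.59 to 2.74. Enterocyte markers (16 genes) had a mean level of 13.07 to 13.14 in wild type and 12.93 to 13.03 in double knockout mice. The ileum markers Fabp6, Slc10a2 and Fgf15 stayed at or below 2.70 and stomach markers at or below 4.01 on every array. Of the colon and pancreatic acinar markers, B4galnt2 (up to 12.48) and Cela1 (up to 7.75) were the exceptions to levels below 3. The difference between the 3′ and 5′ ends of the Gapdh and Actb control transcripts was 0.35, 0.49 and 0.36 in wild type mice 1, 3 and 4 and 0.60, 0.41 and 0.61 in double knockout mice 1, 2 and 3 (exact permutation test, two-sided, p = 0.20, where 3 against 3 cannot go below 0.10).

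Srm was higher and Adi1 split between its probe sets, while no other member gene passed the threshold. Over all 18013 probe sets tested with limma, 4.47% passed at an adjusted p of 0.05, 2.54% higher and 1.93% lower in the double knockout. Of the 18 member probe sets 16 were bright enough, 2 were called higher (Srm and 1 of Adi1) and 2 lower (both Adi1). Groups did not overlap on 10 of the 16 (3 with every double knockout mouse above every wild type mouse and 7 below), against 34.3% of all probe sets (19.5% above and 14.8% below). The median difference over the 16 was 0.10 and over all probe sets 0.025. Since the members were chosen on this contrast, nothing is read from these shares.

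**Figure D1:**
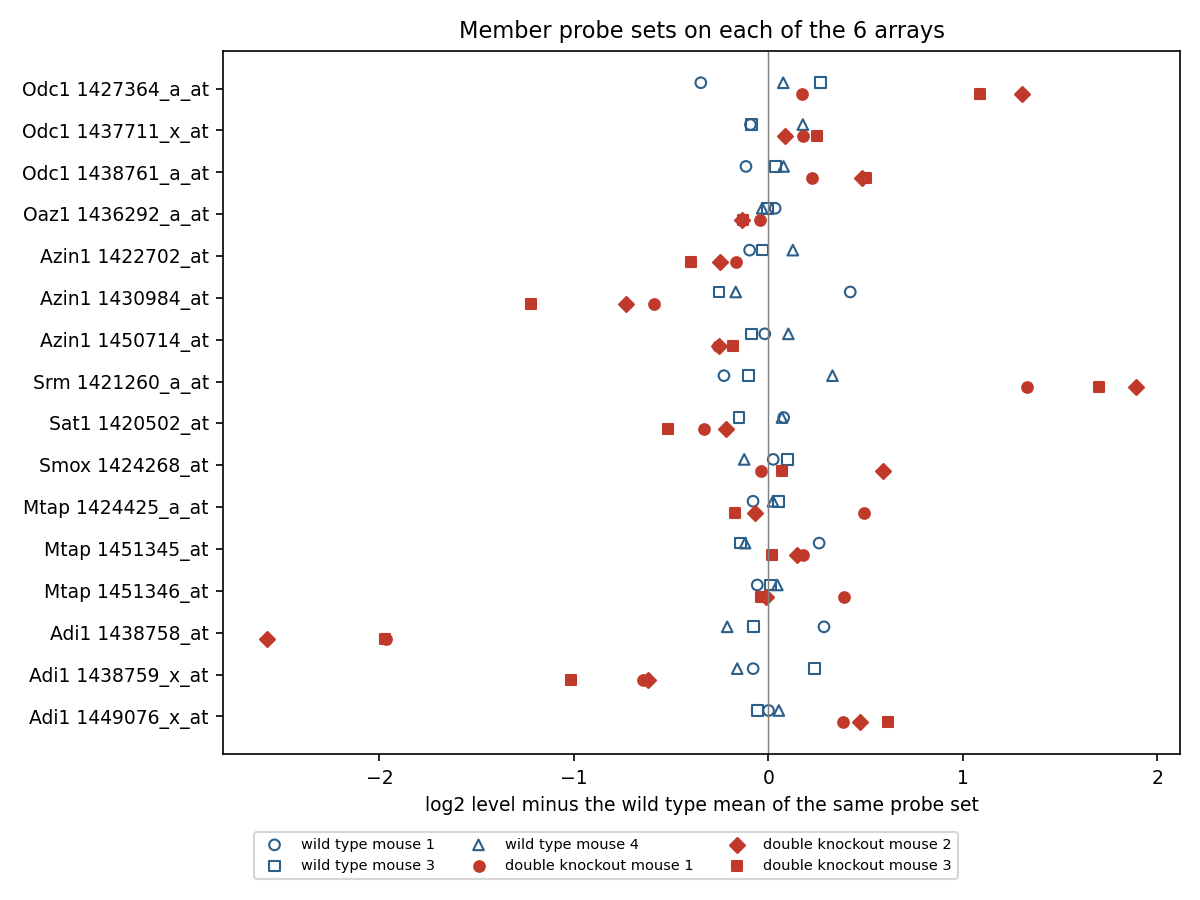
Level of each tested member probe set on each array, as log2 level minus the wild type mean of that probe set (open blue, wild type; filled red, double knockout). Srm lies 1.33 to 1.89 above the wild type mean in the 3 double knockout mice, and the Adi1 probe sets lie on both sides of it.

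Odc1, ornithine decarboxylase, catalyses the first committed step and is the classic controlled point of the pathway. Its 3 probe sets all had higher means in the double knockout, and none passed. On 1427364_a_at the level was 6.23, 6.85 and 6.66 in wild type mice 1, 3 and 4 and 6.75, 7.88 and 7.67 in double knockout mice 1, 2 and 3. Double knockout mouse 1 lay within the wild type range, and the other two above it, for a log2 difference of 0.86 ± 0.31 (SE; 95% interval 0.11 to 1.60).

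On the brighter 1438761_a_at the wild type levels were 10.84, 10.99 and 11.03 and the double knockout levels 11.18, 11.43 and 11.46. The groups did not overlap, mouse 1 was again the lowest of the double knockout group, and the log2 difference was 0.40 ± 0.11, which passed only when the prior variance followed the signal level. On 1437711_x_at the levels were 10.51, 10.52 and 10.78 against 10.78, 10.69 and 10.86. These groups overlapped, with a log2 difference of 0.17 ± 0.11 (95% interval -0.08 to 0.43; 0.26 without wild type mouse 4), and the suffix _x_at marks a probe set whose probes can also match other sequences. The probe sets therefore gave fold differences from 1.13 to 1.81 for the same gene.

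The 250 bases before the RefSeq start site of Odc1 (chr12:17544623-17544872, plus strand, GRCm38.p6) are shown because this enzyme opens the pathway. Capitals mark GGGCGG on either strand, the core of a GC box, a search added after the data were seen; the motif occurred at 4 places here and in 32.7% of all 32851 windows of this length.
Odc1: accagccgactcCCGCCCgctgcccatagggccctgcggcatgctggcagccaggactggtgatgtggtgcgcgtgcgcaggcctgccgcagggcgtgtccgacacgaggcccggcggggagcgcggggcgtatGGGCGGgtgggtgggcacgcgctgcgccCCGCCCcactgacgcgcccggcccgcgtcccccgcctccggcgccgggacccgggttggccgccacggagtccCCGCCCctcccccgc

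The E-box CACGTG, the textbook site of Myc and related factors and its own reverse complement, was not among these 250 letters; it occurred in 6.02% of all windows. RefSeq windows were held for 7 of the 10 genes (8 windows: Odc1, Oaz1, Amd1, Sat1, Smox and Mtap with 1 each and Sms with 2; Srm, Azin1 and Adi1 were not among them). Only 1 of the 8 windows, the more upstream one of Sms, held it.

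Oaz1 and Azin1 act on ornithine decarboxylase after it is made. Antizyme (Oaz1) binds the enzyme and sends it to the proteasome, and the antizyme inhibitor (Azin1), a relative of the decarboxylase without its activity, takes antizyme away. Oaz1, one of the brightest transcripts here, was at 13.00 to 13.06 in wild type and at 12.89 to 12.99 in double knockout mice. The groups just failed to overlap, for a log2 difference of -0.10 ± 0.08 (95% interval -0.29 to 0.08).

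All 3 probe sets of Azin1 were lower on every double knockout than on every wild type array, and none passed. On 1450714_at the levels were 11.11, 11.04 and 11.23 in wild type and 10.87, 10.88 and 10.95 in double knockout mice, a log2 difference of -0.23 ± 0.09. On 1422702_at they were 10.42, 10.48 and 10.64 against 10.35, 10.26 and 10.12, a difference of -0.27 ± 0.10. These probe sets were designed from the same GenBank sequence and gave nearly the same size. The third, 1430984_at, was dim: 4.68, 4.00 and 4.09 in wild type and 3.67, 3.53 and 3.04 in the double knockout, all 3 of the latter below the minimum of 4. Its difference of -0.85 ± 0.23 shrank to -0.26 when values under 4 were raised to 4.

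Srm encodes spermidine synthase, which adds the first aminopropyl group to putrescine. It was measured by 1 probe set, designed from the RefSeq mRNA, at 5.40, 5.53 and 5.96 in wild type mice 1, 3 and 4 and at 6.96, 7.52 and 7.33 in double knockout mice 1, 2 and 3. The lowest double knockout level was above the highest wild type level by more than the whole range of either group. The means were 5.63 ± 0.29 (SD, n = 3) and 7.27 ± 0.29, a log2 rise of 1.64 ± 0.20 (SE), or 3.12-fold (95% interval 2.25 to 4.32).

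The size of the Srm difference held in every alternative run, from 1.52 to 1.85, but its call did not. Among the settings that ended it were the fits without wild type mouse 1 (1.53), wild type mouse 3 (1.59) or double knockout mouse 3 (1.61), and the model with the 3′ to 5′ difference (1.85).

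Genes of dividing cells were also higher in the double knockout. Their list was chosen with earlier results of these data known, so its counts and p-values are given as a description. Of 22 proliferation genes with a probe set, 21 were tested, 10 rose and 0 fell (18 had an unadjusted limma p under 0.05), against 3.17% of all genes called higher and 1.60% lower; the mitotic motility receptor Hmmr rose by 0.68 ± 0.08 and the mitotic kinase Plk1 by 1.18 ± 0.17 (limma adjusted p 0.0189 and 0.0256). Their mean level was 7.82 to 7.88 in wild type and 8.29 to 8.47 in double knockout mice. Without double knockout mouse 2, 7 of them passed; without any other single mouse, 0 did. The 11 crypt stem cell markers had overlapping means of 7.39 to 7.55 and 7.36 to 7.73, with 0 of 10 tested past the threshold (4 at an unadjusted limma p under 0.05). Of the other cell type lists, 1 gene passed, the tuft cell marker Rgs13, which fell by 1.00 ± 0.17 (limma adjusted p = 0.0321). The cell type lists were likewise chosen with earlier results known, so this call is a description too. The 5 tuft markers had a mean of 4.13 to 4.22 in wild type and 3.63 to 3.83 in double knockout mice. Only 2 of these 5 were tested, and the other 3 were too dim for a test. The part of any of these cells in the Srm difference was not tested, and in whole tissue more cells of a type and more RNA per cell cannot be told apart.

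**Figure D2:**
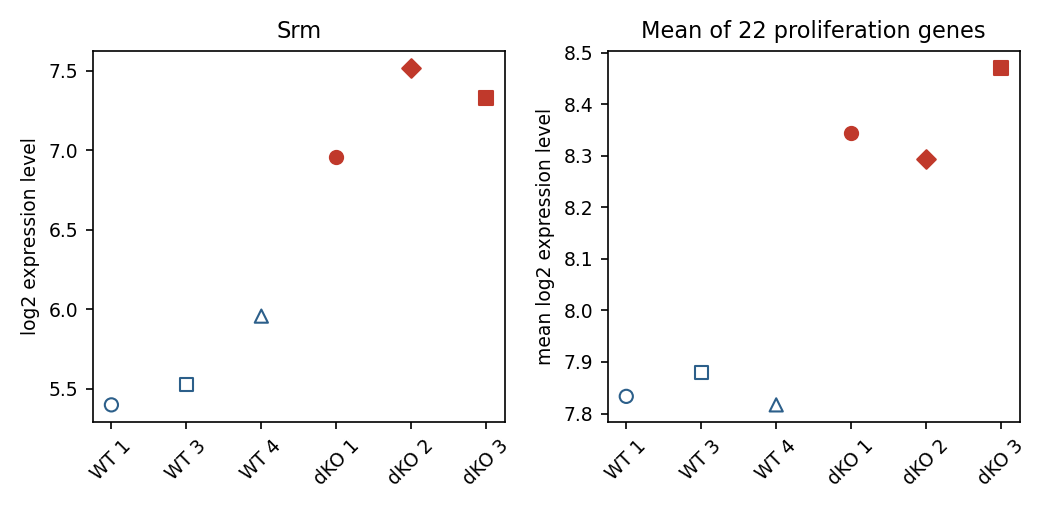
Log2 level of Srm (left) and the mean log2 level of 22 proliferation genes (right) in each mouse; WT is wild type and dKO double knockout. All double knockout mice lie above all wild type mice in both panels. Srm was highest in double knockout mouse 2 and the proliferation mean in double knockout mouse 3, and a link between them was not tested.

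Sms encodes spermine synthase, which adds the next aminopropyl group. Its probe sets are shared with Sms-ps by annotation, so their values cannot be given to Sms alone. The brightest was at 7.27 to 7.42 in wild type and 7.48 to 7.66 in double knockout mice, a log2 difference of 0.19 ± 0.09. The second was at 4.72 to 5.07 and 4.75 to 5.11, a difference of 0.046 ± 0.14, and the third stayed at or below 2.66. Neither tested probe set was called, and their 95% intervals (-0.025 to 0.41 and -0.28 to 0.37 for the 2 tested) ended below that of Srm. The same holds for a probe set annotated to Oaz1 and Oaz1-ps, at -0.11 ± 0.09. The Sms window with the E-box (chrX:157492288-157492537, minus strand, GRCm38.p6) is shown, with CACGTG in capitals, as the one place where the motif was found among the members' windows.
Sms: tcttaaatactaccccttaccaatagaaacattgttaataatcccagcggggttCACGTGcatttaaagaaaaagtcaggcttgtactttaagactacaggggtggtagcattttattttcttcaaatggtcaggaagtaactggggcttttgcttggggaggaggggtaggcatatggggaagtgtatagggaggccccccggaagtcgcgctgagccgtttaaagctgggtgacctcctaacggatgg

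Polyamines are broken down by acetylation and oxidation. Sat1, spermidine/spermine N1-acetyltransferase, starts this path, and its single probe set was at 11.10, 10.87 and 11.09 in wild type and at 10.69, 10.80 and 10.51 in double knockout mice. Every double knockout level was below every wild type level, with a log2 difference of -0.35 ± 0.11 (95% interval -0.63 to -0.08) that was not called. With the 3′ to 5′ difference in the model it was -0.18 ± 0.12. Smox, spermine oxidase, turns spermine back into spermidine. It was near the minimum on 1424268_at, at 4.19 to 4.41 in wild type and 4.27, 4.90 and 4.38 in double knockout mice 1, 2 and 3. Only mouse 2 lay above the wild type range, and the difference was 0.21 ± 0.17, or 0.016 without that mouse. The other Smox probe set stayed at or below 2.51 on all arrays.

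**Figure D3:**
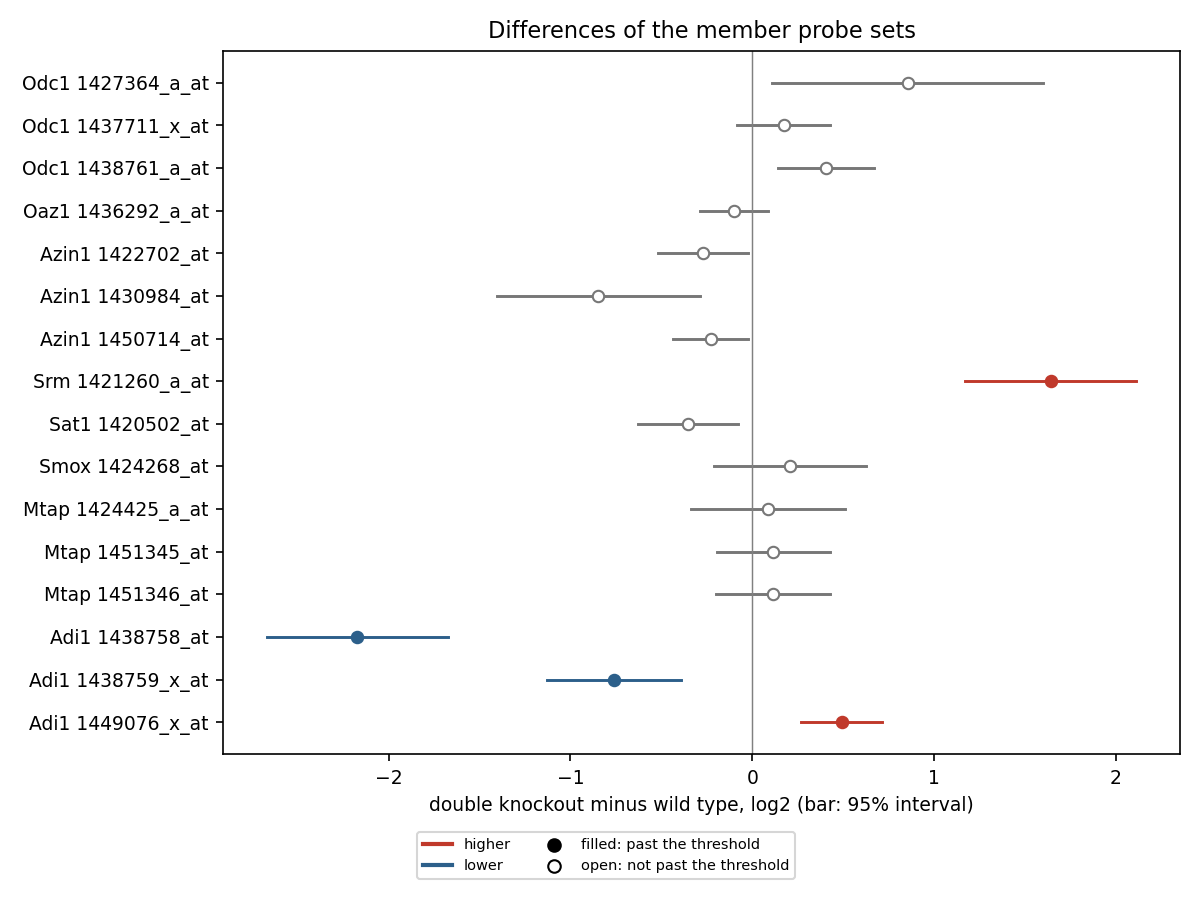
Double knockout minus wild type log2 difference of each tested member probe set with its 95% interval; filled points passed the threshold over all 18013 probe sets. The interval of 1438758_at for Adi1 (-2.67 to -1.68) lies below all others, and that of Srm (1.17 to 2.11) overlaps only the wide interval of 1427364_a_at for Odc1 (0.11 to 1.60).

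Mtap, methylthioadenosine phosphorylase, takes the first step of methionine salvage by cleaving the methylthioadenosine that spermidine and spermine synthesis release. All 4 of its probe sets come from the same GenBank sequence, 3 were tested and none was called. Log2 differences were 0.085 ± 0.18 on 1424425_a_at, 0.12 ± 0.13 on 1451345_at and 0.11 ± 0.13 on 1451346_at. The widest of their 95% intervals ran from -0.34 to 0.51. Double knockout mouse 1 set the sign on 2 of them: on 1424425_a_at it was at 5.88, against 5.22 to 5.45 on the other 5 arrays, and on 1451346_at at 6.07, against 5.63 to 5.73. Without it the differences were -0.12 and -0.024. The levels on 1451345_at lay near the minimum of 4, at 4.40, 4.00 and 4.02 in wild type and 4.32, 4.29 and 4.16 in double knockout mice. Its difference was 0.25 without wild type mouse 1, 0.045 without wild type mouse 3 and 0.057 without wild type mouse 4. The dim 1424426_at, at or below 3.21, was also highest in double knockout mouse 1.

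Adi1, acireductone dioxygenase, acts near the end of the salvage cycle, where it makes the keto acid that is transaminated to methionine. Its probe sets passed in opposite directions. On 1438758_at the level was 6.60, 6.24 and 6.10 in wild type mice 1, 3 and 4 and 4.34, 3.73 and 4.34 in double knockout mice 1, 2 and 3. The groups lay far apart, with double knockout mouse 2 below the minimum of 4 and the other two just above it. The log2 difference was -2.17 ± 0.21, or 4.51-fold lower (95% interval 3.19 to 6.36).

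On 1438759_x_at, designed from the same GenBank sequence, the levels were 5.27, 5.58 and 5.18 in wild type and 4.70, 4.72 and 4.33 in double knockout mice. The groups did not overlap and Adi1 fell by 0.76 on this probe set (SE 0.15). On 1449076_x_at, designed from the RefSeq mRNA, the levels were 7.60, 7.54 and 7.65 against 7.98, 8.07 and 8.22, so that all double knockout mice were higher, by 0.49 ± 0.09. Both 1438759_x_at and 1449076_x_at bear the suffix of probe sets whose probes can also match other sequences. A gene level for Adi1 therefore depended on the probe set chosen. Of 3919 genes with several tested probe sets, 5 had probe sets called in opposite directions, Adi1 among them.

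Both smaller Adi1 calls were lost when any 1 of the 6 mice was left out, with values of -0.84 to -0.63 and 0.43 to 0.54. The fall on 1438758_at passed without each mouse in turn (-2.28 to -1.97) and did not pass in some other models, such as that with the 3′ to 5′ difference (-2.41). Adi1 lies on chromosome 12, which also carries Ifrd1 and Odc1. Of the 601 tested probe sets of genes on this chromosome 4.99% were called. The share was 7.92% of 871 on the chromosome of Ifrd2 and 4.47% of all 18013 probe sets. Whether the position of Adi1 bears on its values was not tested.

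**Figure D4:**
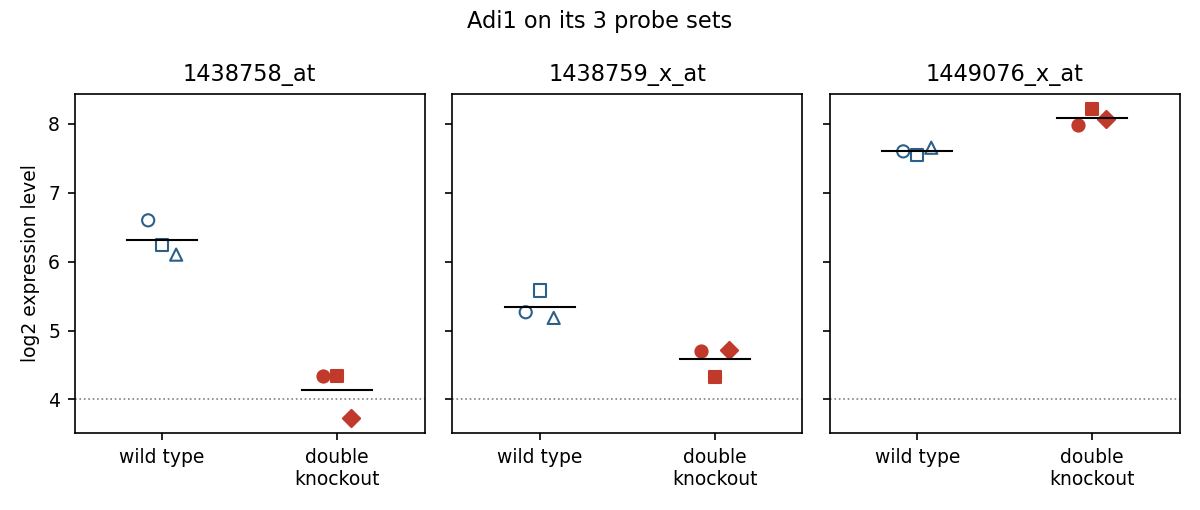
Log2 level of Adi1 on its 3 probe sets (circle, mouse 1; square, mouse 3; triangle, wild type mouse 4; diamond, double knockout mouse 2; line, mean of 3 mice; dotted line, the minimum of 4). Double knockout mice are lower on the left and middle probe sets and higher on the right one.

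Other genes of the same pathways, none of them a member, were tested in the same fit with the brightest probe set standing for each gene. Of all 9673 genes measured this way 4.78% passed. The pathway lists were also chosen with earlier results of these data known. Of the list of polyamine catabolism, uptake and use, 17 of 21 genes had a probe set and 11 were tested. By limma 0 rose, 1 fell and 10 did not pass (5 of the 11 had an unadjusted p under 0.05). The median log2 difference of the 11 was -0.082, against 0.054 over all genes. The gene that fell was Dhps, deoxyhypusine synthase, which uses spermidine to modify the translation factor eIF5A.

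Dhps was at 6.86, 7.04 and 6.79 in wild type mice 1, 3 and 4 and at 6.29, 6.08 and 6.08 in double knockout mice 1, 2 and 3. Every double knockout level lay below every wild type level, and the gene was 1.68-fold lower (log2 difference -0.74 ± 0.11, limma adjusted p = 0.0259). Its second probe set was lower in 3 of 3 double knockout mice too, by a log2 difference of -0.56 ± 0.15, and did not pass (limma adjusted p = 0.0807). The call stayed without double knockout mouse 1 (-0.82) and was lost without wild type mouse 1, 3 or 4 (-0.76, -0.67 and -0.80) or double knockout mouse 2 or 3 (both -0.71). It did not pass in some other models either, such as that with the 3′ to 5′ difference (-0.87). The next enzyme of that modification, Dohh, and its substrate Eif5a, both named after their values were seen, stood at 0.31 ± 0.10 and 0.19 ± 0.09 and did not pass (limma adjusted p 0.114 and 0.232).

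Ornithine and arginine supply feeds the pathway from above. Of 17 genes, 14 were tested, and 0 rose and 0 fell by limma (2 at an unadjusted p under 0.05), with a median log2 difference of -0.061. The smallest p-values were those of Oat, ornithine aminotransferase, at -0.24 ± 0.09, and Arg2, the mitochondrial arginase, at -0.22 ± 0.09 (limma adjusted p 0.141 and 0.171). For both, the 3 double knockout levels lay below all 3 wild type levels. Their 95% intervals ran from -0.44 to -0.03 and from -0.43 to -0.01. Oat passed with a trend in the prior variance, and with the 3′ to 5′ difference in the model Arg2 was at -0.14.

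Of 22 genes of methionine salvage and the methionine cycle, 20 had a probe set, 11 were tested, and 0 rose and 0 fell by limma (4 at an unadjusted p under 0.05), with a median log2 difference of -0.062. Mat2b, the regulatory subunit of the enzyme that makes S-adenosylmethionine, had the smallest p, at -0.36 ± 0.08, with 9.91, 9.83 and 9.81 in wild type and 9.53, 9.54 and 9.42 in double knockout mice (limma adjusted p = 0.0604). It passed with the stricter filter and with a trend in the prior variance. The transaminase Kyat1 was next, at -0.71 ± 0.25 (limma adjusted p = 0.136), and at -0.29 with the 3′ to 5′ difference in the model. The 3 salvage enzymes between Mtap and Adi1, named after their values were seen, did not move one way: Mri1 stood at -0.50 ± 0.43, Apip at 0.32 ± 0.11 and Enoph1 at 0.21 ± 0.09, none past the threshold (limma adjusted p 0.487, 0.137 and 0.179).

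**Figure D5:**
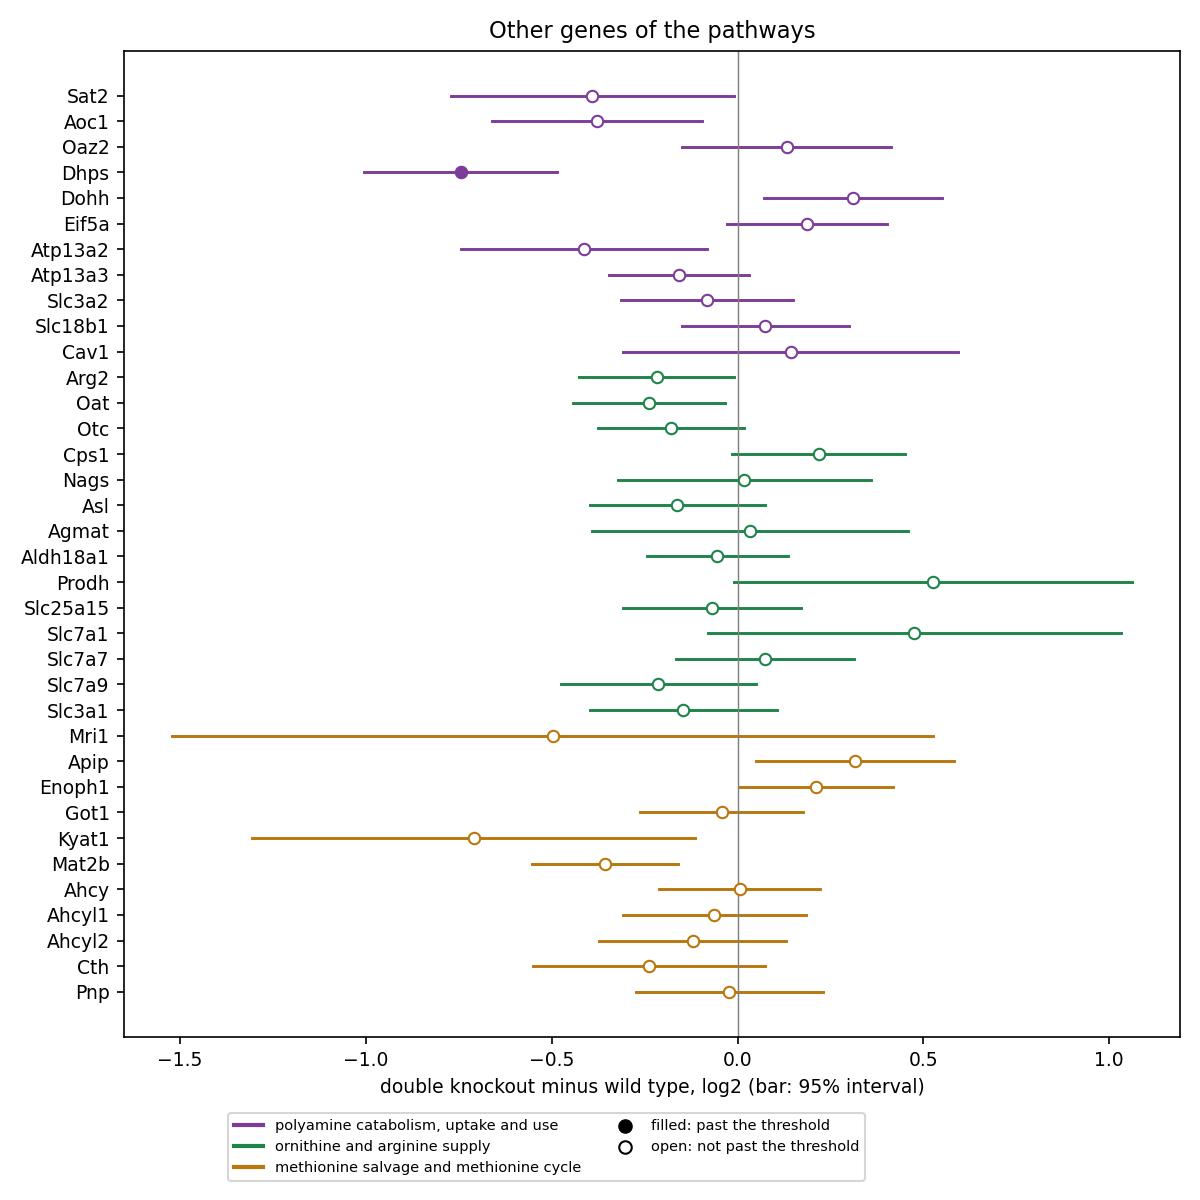
Double knockout minus wild type log2 difference, with its 95% interval, of the 36 tested genes of the 3 pathway lists, coloured by list. Dhps, at -0.74, is the only filled point, which marks a limma adjusted p of at most 0.05.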

How the data were processed

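Total RNA (500 ng) from each jejunum was biotin-labelled and hybridised to 1 array, per the labels' protocols. The authors deposited a log2 level for every probe set on every array; the tool was GCRMA 2.18.0 per the submitters' processing notes, its settings were not seen here, and the log2 scale was read from the values. GCRMA subtracts a modelled background, which makes dim values uncertain. Of all 45101 probe sets, 34958 carried 1 gene symbol, 932 several and 9211 none, after symbols were updated to GRCm38.p6. These counts include 64 controls, which were then dropped, leaving 34945 with 1 symbol. Array medians lay between 2.87 and 2.90, and precision is limited by 3 arrays per group. Within every pair of arrays of a group, 62.5% or more of the tested probe sets were over 0.1 apart, so none was a copy.

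The difference between groups was fitted in R 4.3.3 by limma 3.58.1 (lmFit and eBayes, two-sided) on the 18013 probe sets that exceeded 4 on 3 or more arrays. P-values were adjusted over all of them by the Benjamini-Hochberg method, and the fit was tested on simulated data. Each array is a separately numbered mouse. Errors of differences are limma standard errors. Members and lists were chosen with earlier results of these data known. The naming rule took all members and both targeted genes; from each pathway list the passing genes by p (at most 4), or else the first 2 by p; and from other lists defining markers and at most 2 passing genes. Exceptions are marked. A probe set was found for 187 of 201 listed symbols, and the rest were not analysed here. Alternatives changed the filter, the normalization, the floor (4), the prior variance, the weighting of arrays, the probe set chosen per gene and the mice included, or added the mouse number or the 3′ to 5′ difference to the model. Figures were drawn with matplotlib 3.10.9.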

Additional observations from a re-analysis of the deposited data

How the results depend on the processing

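Several settings changed the members' calls. In place of 2 member probe sets called higher and 2 lower, 1 and 1 were called without the filter and 1 lower with a robust prior. The stricter filter (a level over 6) also left 1 lower, because 1438759_x_at for Adi1 was then too dim to be tested. With the mouse number as a replicate block and with the 3′ to 5′ covariate, 0 higher, 0 lower, 0 genes of polyamine catabolism, uptake and use and 0 proliferation genes were called by limma, while 13 and 17 of all probe sets were, against 805. The block ended the calls of Srm (1.68), of 1438758_at for Adi1 (-2.08) and of Dhps (-0.76), none of which changed direction. Leaving out 1 mouse left 0 to 1 higher and 1 lower, 0 to 1 gene of polyamine catabolism, uptake and use (main count 1), 0 to 7 proliferation genes (main count 10) and 32 to 435 of all probe sets. With a trend in the prior variance 2 polyamine, 1 ornithine and arginine and 1 methionine gene and 16 proliferation genes were called, the stricter filter called 1 methionine gene, and without the filter 6 proliferation genes passed. Of all probe sets 1645, 1216 and 472 passed in these settings.

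Signs turned for Smox (-0.046 with the replicate block) and for Mtap: 1424425_a_at was at -0.049 with the covariate, and without 1 mouse it ranged from -0.12 to 0.21 and 1451346_at from -0.024 to 0.19. Mice 1 and 3 occur in both groups, and the labels do not say whether a shared number pairs samples. Deviations from the group means correlated at 0.02 for number 1 and 0.30 for number 3, against -0.26 to 0.26 for other pairs. Pairs from only 2 numbers cannot show whether the samples were paired, and the block rests on these 2 numbers. The 3′ to 5′ difference itself was 0.14 between groups (0.16 for Gapdh and 0.12 for Actb alone). The cause of these changes was not tested. Quantile normalization and median centring changed no member's call.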
